A study of Mus musculus with 24 samples.

Results

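Transcripts of 9 genes that make or use small RNAs were examined in single mouse oocytes: Dicer1, Drosha, Dgcr8, Ago2, Piwil1, Piwil2, Piwil4, Ddx4 and Mael. They were chosen by name, not by level, though with earlier results of these data known. They are 9 of 25965 entries in the table of genes. Ago2 appears there under its older symbol Eif2c2. Of the 9 genes, 6 averaged 1 RPM or more across the oocytes and were tested between genotypes. Dgcr8, Piwil2 and Piwil4 lay below that level and are given by their reads. RPM counts the reads of a gene for every 1000000 reads in its library.

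The study asked whether raised anti-Müllerian hormone (AMH), a hormone of the granulosa cells of growing follicles, alters the transcripts of the oocyte. Oocytes were collected from the oviduct of adult Thy1.2-AMHTg/0 mice, in which AMH is overexpressed from a transgene named for the Thy1.2 promoter, and of wild-type Thy1.2-AMH0/0 mice. All females had ovulated naturally, and every oocyte had been freed of cumulus cells and zona pellucida and lysed alone. The values cover 10 transgenic oocytes and 11 wild-type oocytes from 4 females of each genotype, with 1 female of each genotype in each of 4 sequencing lanes, and 1 library of the control RNA of the amplification kit. Which cells make the transgenic hormone, the strain, and the ages in weeks are not stated in the labels. From the labelled samples, the water-only library and, in lane 1, transgenic oocyte A were not used here.

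Small RNAs guide Argonaute proteins to matching transcripts. Drosha, an RNase III, and its RNA-binding partner Dgcr8 cut microRNA hairpins out of nuclear transcripts, and Dicer1 then cuts the hairpins to microRNAs. Dicer1 also cuts long paired RNA into small interfering RNAs, which Ago2, the slicing Argonaute, uses to cleave targets. Mouse oocytes are known to need Dicer1 for the meiotic spindle, whereas deletion of Dgcr8 in oocytes leaves fertility largely intact. Rodent oocytes make a shortened Dicer from a promoter inside an intron; the table holds 1 value for the gene, so the forms cannot be told apart here. The PIWI proteins Piwil1, Piwil2 and Piwil4 carry piRNAs, which silence transposons in the germ line. The RNA helicase Ddx4 and Mael act with them in germ granules. Male mice that lack Piwil1, Piwil2, Piwil4, Ddx4 or Mael are sterile, and the females are fertile.

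Library totals were 20441302 to 33341040 reads per oocyte, with 22039362 reads for the control RNA, and 3 reads corresponded to 0.0900 to 0.147 RPM in an oocyte. The share of reads in listed genes was 91.1% to 94.8% in transgenic oocytes and 91.5% to 93.6% in wild-type oocytes. All 10 oocyte markers were present in every oocyte, and their summed level was at least 14703 RPM. Amh itself was at 0 in 20 of the 21 oocytes, so it does not check the genotype labels. Of 16 cumulus and granulosa markers, Serpine2 stood at 733 to 1428 RPM in all oocytes. The other 15 summed to 0 to 3.29 RPM in transgenic oocytes and to 0.147 to 35.7 RPM in wild-type oocytes, where oocyte C of lane 2 held the 35.7 RPM and the next oocyte 2.81 RPM. Foxl2, Pgr, Hba-a1, Hbb-b1, Ptprc and Lyz2 were at 0 in all 21 oocytes. The labels do not name the tissue of the control RNA; its 8 brain markers summed to 14925 RPM, with the myelin gene Mbp at 6070 RPM.

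The regions upstream of Piwil1, Ddx4 and Mael are printed because these 3 genes were the members that were near 0 in the control RNA and present in every oocyte. Each is the 250 bases before the RefSeq gene start on GRCm38.p6, written 5′ to 3′ on the gene's own strand, with every CACGTG in capitals. The 3 regions are chr5:128735996-128736245 on the plus strand, chr13:112652311-112652560 on the minus strand and chr1:166238745-166238994 on the minus strand.
Piwil1 upstream: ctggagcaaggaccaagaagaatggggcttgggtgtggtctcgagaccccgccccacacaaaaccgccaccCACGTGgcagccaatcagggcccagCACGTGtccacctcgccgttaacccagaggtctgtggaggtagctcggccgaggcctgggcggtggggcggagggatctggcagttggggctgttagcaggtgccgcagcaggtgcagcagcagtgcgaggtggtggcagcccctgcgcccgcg
Ddx4 upstream: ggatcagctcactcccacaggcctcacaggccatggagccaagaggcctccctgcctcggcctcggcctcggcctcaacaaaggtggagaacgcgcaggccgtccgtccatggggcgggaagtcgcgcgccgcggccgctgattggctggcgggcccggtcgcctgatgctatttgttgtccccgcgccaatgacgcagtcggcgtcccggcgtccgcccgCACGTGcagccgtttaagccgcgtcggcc
Mael upstream: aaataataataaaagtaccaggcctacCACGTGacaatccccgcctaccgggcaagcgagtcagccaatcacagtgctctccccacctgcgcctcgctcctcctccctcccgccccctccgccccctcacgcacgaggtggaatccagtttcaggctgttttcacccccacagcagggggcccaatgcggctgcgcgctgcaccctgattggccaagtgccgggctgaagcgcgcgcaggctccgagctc

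CACGTG, which reads the same on the opposite strand, was chosen after these sequences had been read. It occurred 2 times before Piwil1, with its first base at -179 and at -154 from the gene start, 1 time before Ddx4 at -29 and 1 time before Mael at -223. The same letters were in 6.02% of 32851 RefSeq promoters of this length, and 6.86% of the 27025 genes behind them had at least 1 such promoter. Among the 7 of the 9 genes that had an entry, 3 held it; Ago2 and Piwil2 were without an entry. Over the 4 pathway lists described further on, 13 of 52 genes with an entry held it, with Piwil1, Ddx4 and Mael counted again. The letters were picked from the sequences of these 3 genes. Neither count can therefore show that the motif is more frequent here than over all genes. A match of letters is a description and does not show that a factor binds there.

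Dicer1 led the 9 transcripts, by reads and per length (chromosome 12, 104687742 to 104751952, minus strand, GRCm38; ENSMUSG00000041415). It ran from 275 RPM through a median of 544 RPM to 886 RPM in the 10 transgenic oocytes, and from 349 RPM through 608 RPM to 738 RPM in the 11 wild-type oocytes. The highest and the lowest oocyte were thus both transgenic, oocyte C of lane 3 and oocyte C of lane 1. The control RNA held 22.0 RPM (485 reads), so the oocyte mean of 554 RPM was 25.2-fold that of the control RNA, with a range of 23.1 to 27.6 from the counting error of the control library. By length Dicer1 stood at 33.1 RPM per kb of exon, above 87.2% of 10948 tested genes with a known length.

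Drosha and Dgcr8, which act before Dicer1 on microRNA hairpins, were lower in oocytes than in the control RNA. Drosha (chromosome 15, 12824815 to 12935290, plus strand; ENSMUSG00000022191) ran from 11.8 RPM through a median of 17.9 RPM to 37.0 RPM in transgenic oocytes, and from 14.2 RPM through 25.7 RPM to 29.6 RPM in wild-type oocytes. In the control RNA it stood at 114 RPM (2516 reads), 5.27-fold the oocyte mean of 21.6 RPM, and every oocyte lay below it. Dgcr8 (chromosome 16, 18253948 to 18289249, minus strand; ENSMUSG00000022718) had reads in all 21 oocytes, yet few of them. It ran from 0.0879 RPM through a median of 0.350 RPM to 0.608 RPM in the 10 transgenic oocytes (83 reads in all) and from 0.0473 RPM through 0.242 RPM to 1.21 RPM in the 11 wild-type oocytes (102 reads). The highest value, 1.21 RPM, belonged to wild-type oocyte C of lane 2. This oocyte had the highest sum of the cumulus and granulosa markers other than Serpine2. The part of those cells in its Dgcr8 level was not tested. Dgcr8 stood at 3.22 RPM in the control RNA (71 reads), 8.64-fold the oocyte mean of 0.373 RPM. The 3' end of Dgcr8 overlaps Trmt2a on the opposite strand, which averaged 1.31 RPM, and the sources do not state that strand was kept, so part of these reads could be those of Trmt2a. Gm49776, a protein-coding gene on the same strand without an entry of its own, also overlaps the 3' end of Dgcr8. Part of the reads could be those of Gm49776 as well, whether or not strand was kept.

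The Dgcr8 transcript also holds a microRNA hairpin, Mir1306, a known kind of target of the Drosha and Dgcr8 complex itself. It is shown because it marks, inside one member, the structure on which the pair acts. The RefSeq hairpin lies at chr16:18284239-18284317 on the minus strand of GRCm38.p6, and its 79 bases all fall in coding exons of Dgcr8. The capitals mark the 2 annotated arms. Mature microRNAs were not measured by these libraries.
Mir1306 hairpin: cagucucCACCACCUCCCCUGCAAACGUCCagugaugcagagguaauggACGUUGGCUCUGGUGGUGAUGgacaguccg

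Among the Argonautes, Ago2 was present in every oocyte but was not the leading member. Ago2 (chromosome 15, 73098592 to 73184840, minus strand; ENSMUSG00000093631) ran from 9.61 RPM through a median of 18.7 RPM to 33.3 RPM in transgenic oocytes and from 9.60 RPM through 19.7 RPM to 24.4 RPM in wild-type oocytes, with 37.0 RPM in the control RNA (815 reads). All 21 oocytes lay below the control RNA. A second, short entry with the same gene ID (73095844 to 73096684) held 0 to 1.26 RPM in oocytes and was left out. Of the reads of the 4 Argonaute genes, Ago2 took 12.2 ± 3.42% in transgenic females and 12.7 ± 0.969% in wild-type females (SD, n = 4 each), against 50.8% in the control RNA. Ago3, listed as Eif2c3, took 87.0 ± 3.41% in transgenic females and 86.7 ± 1.11% in wild-type females, against 23.0% in the control RNA. The lowest share of Ago3 among the 21 oocytes was 79.5%. With reads divided by exon length the shares were 84.3% in transgenic females and 84.1% in wild-type females for Ago3, and 13.9% and 14.5% for Ago2. Ago1 (Eif2c1) took 0.0317% in transgenic females and 0.158% in wild-type females, and Ago4 (Eif2c4) 0.743% and 0.481%, against 14.4% and 11.8% in the control RNA.

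**Figure D1:**
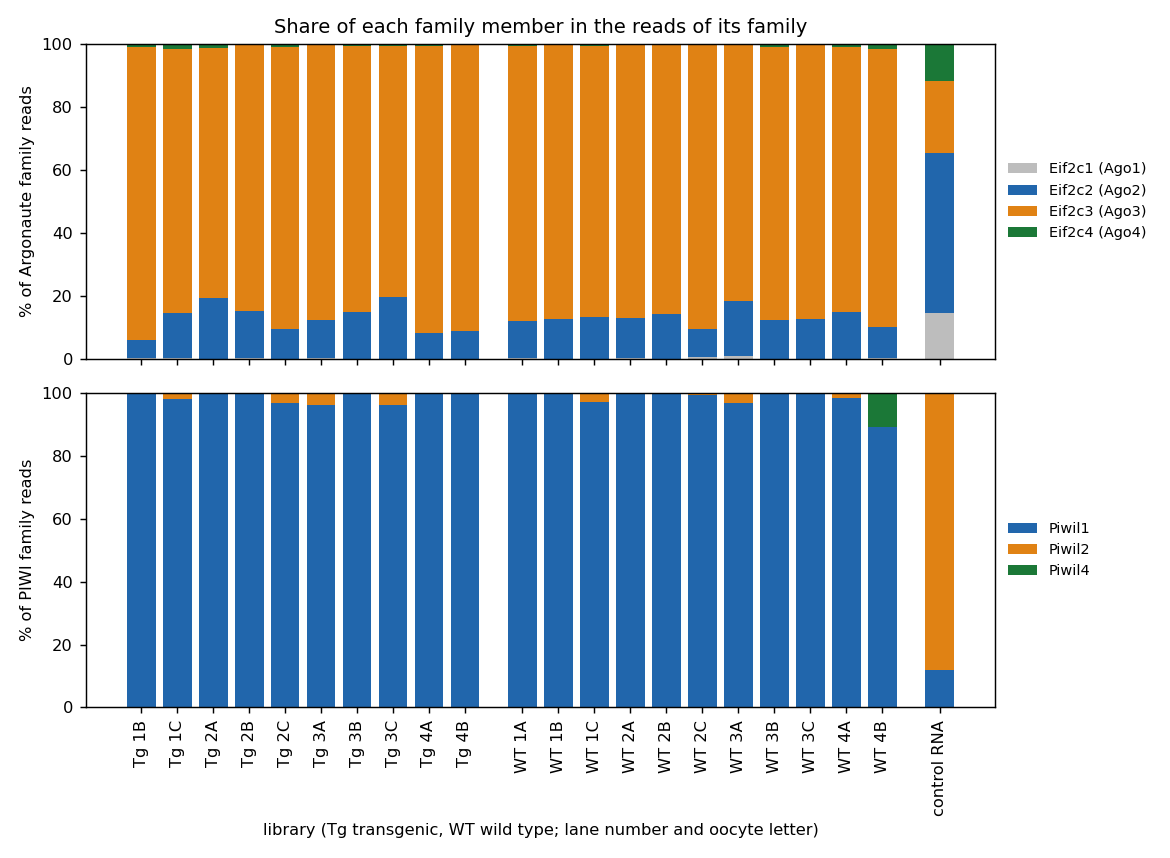
Share of each gene in the summed reads of its family, in percent, for every library (10 transgenic oocytes, 11 wild-type oocytes, 1 control RNA); the upper bars show the 4 Argonautes and the lower bars the 3 PIWI genes. The lowest oocyte bar of Ago3 (Eif2c3) is 79.5% and that of Piwil1 89.3%, whereas the control RNA bars are led by Ago2 (50.8%) and Piwil2 (88.2%). The PIWI bar of the control RNA rests on only 15 reads of Piwil2 and 2 reads of Piwil1.

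Piwil1 made up nearly all PIWI reads of the oocyte. Piwil1 (chromosome 5, 128736246 to 128755474, plus strand; ENSMUSG00000029423) ran from 13.8 RPM through a median of 18.8 RPM to 56.7 RPM in transgenic oocytes, and from 9.09 RPM through 20.2 RPM to 34.6 RPM in wild-type oocytes. The value of 56.7 RPM belonged to transgenic oocyte C of lane 1, the deepest library, and the next transgenic oocyte stood at 28.7 RPM. In the control RNA there were 2 reads (0.0907 RPM); the ratio of the oocyte mean to it was 232, with a counting range of 64.3 to 1918. Piwil1 took 98.8 ± 1.01% of the PIWI reads in transgenic females and 97.9 ± 2.74% in wild-type females, against 11.8% in the control RNA.

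The other PIWI genes were at or near 0. Piwil2 (chromosome 14, 70372480 to 70429094, minus strand; ENSMUSG00000033644) had reads in 5 of 10 transgenic oocytes, with a highest value of 1.14 RPM, and in 5 of 11 wild-type oocytes, with a highest value of 0.851 RPM. Its level of 0.681 RPM in the control RNA (15 reads) was inside the range of the oocytes. Piwil4 (chromosome 9, 14696230 to 14740733, minus strand; ENSMUSG00000036912) had 0 reads over all 10 transgenic oocytes, and 3 reads over that group would be 0.0125 RPM. It had 36 reads in 1 wild-type oocyte, B of lane 4 (1.40 RPM), and 0 in the other 10 and in the control RNA. Gm10706, which overlaps Piwil4 on the opposite strand, was at 0 RPM. Counting ranges and floors cover counting error only, because amplified reads are not independent molecules.

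Ddx4 and Mael, the germ granule members, were present in every oocyte and near 0 in the control RNA. Ddx4 (chromosome 13, 112598333 to 112652310, minus strand; ENSMUSG00000021758) ran from 20.1 RPM through a median of 44.6 RPM to 68.7 RPM in transgenic oocytes and from 13.4 RPM through 32.5 RPM to 52.5 RPM in wild-type oocytes. The control RNA held 0.499 RPM (11 reads), a 77.9-fold difference from the oocyte mean with a counting range of 43.6 to 156. Mael (chromosome 1, 166201385 to 166238744, minus strand; ENSMUSG00000040629) ran from 10.6 RPM through a median of 16.0 RPM to 33.6 RPM in transgenic oocytes and from 3.95 RPM through 27.7 RPM to 44.9 RPM in wild-type oocytes. Its lowest values, 3.95 and 7.39 RPM, came from the 2 wild-type oocytes of lane 4, and the other 19 oocytes stood at 10.6 RPM or above. The control RNA held 0.363 RPM of Mael (8 reads), and the oocyte mean was 59.4-fold that, with a counting range of 30.2 to 138.

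**Figure D2:**
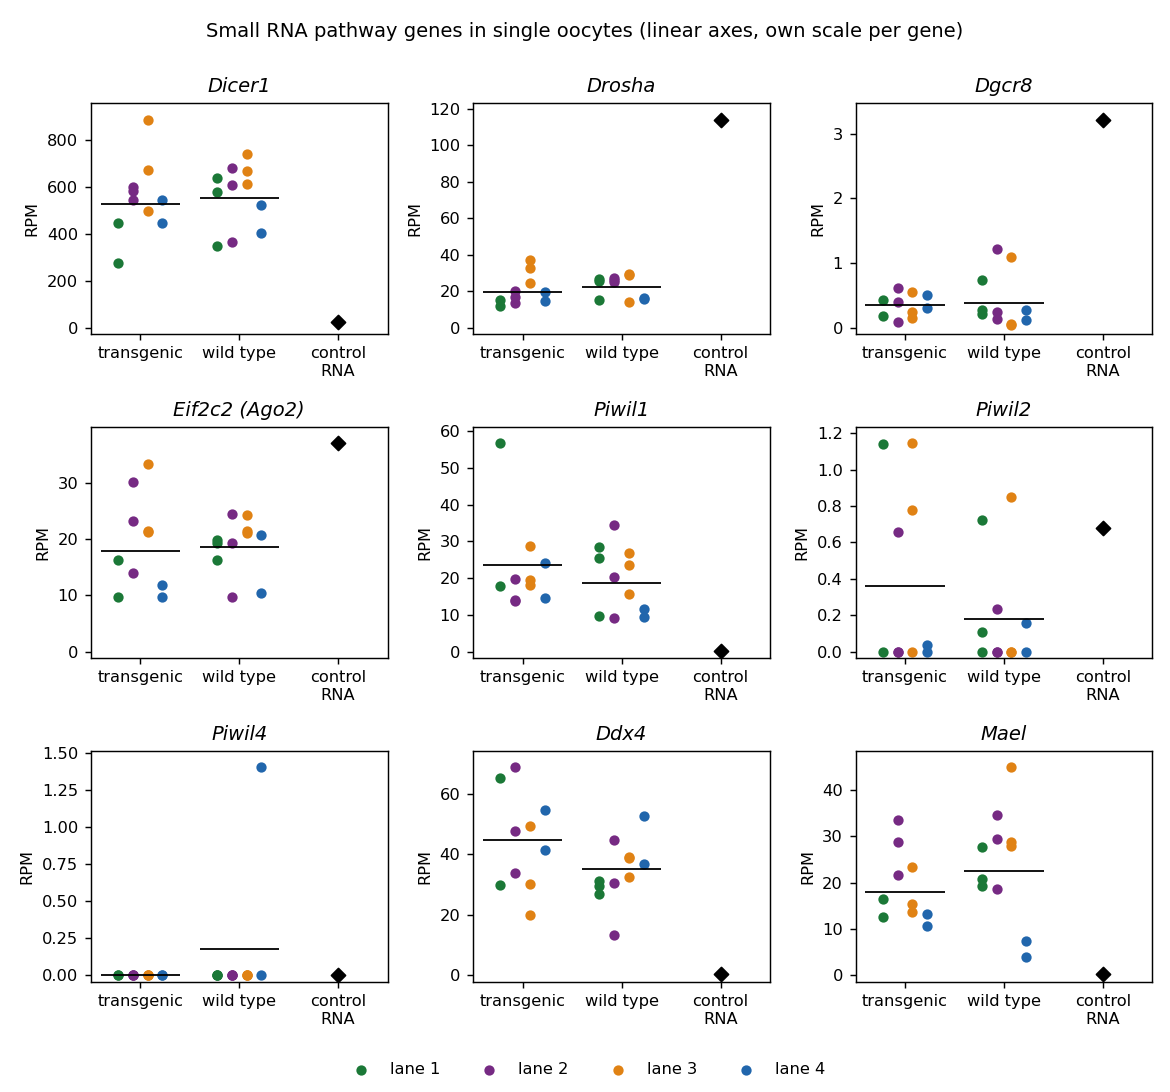
RPM of the 9 genes on linear axes, each with its own scale; points are oocytes coloured by sequencing lane, bars are means of 4 females, and the diamond is the single control RNA library. Transgenic and wild-type oocytes overlap for all 9 genes, Piwil4 is above 0 in 1 oocyte, and the control RNA lies above all oocytes for Drosha, Dgcr8 and Ago2 and below all of them for Dicer1, Piwil1, Ddx4 and Mael.

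Against the control RNA, 4 members had a difference of 2 or more in log2(RPM + 1) and 1, Drosha, a difference of -2 or less. Of 16105 genes at 1 RPM or more in the oocyte mean or in the control RNA, 15.4% were higher by that much and 41.1% lower. Piwil2 and Piwil4 were below 1 RPM in both and are not among those genes. The differences were 4.59 for Dicer1, 4.73 for Ddx4, 4.34 for Piwil1 and 4.05 for Mael, and -2.35 for Drosha. Dgcr8 at -1.62, Ago2 at -0.93, Piwil2 at -0.40 and Piwil4 at 0.09 lay between. The control RNA is a single library of unstated tissue, so these are 2 sets of values side by side without a test.

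**Figure D3:**
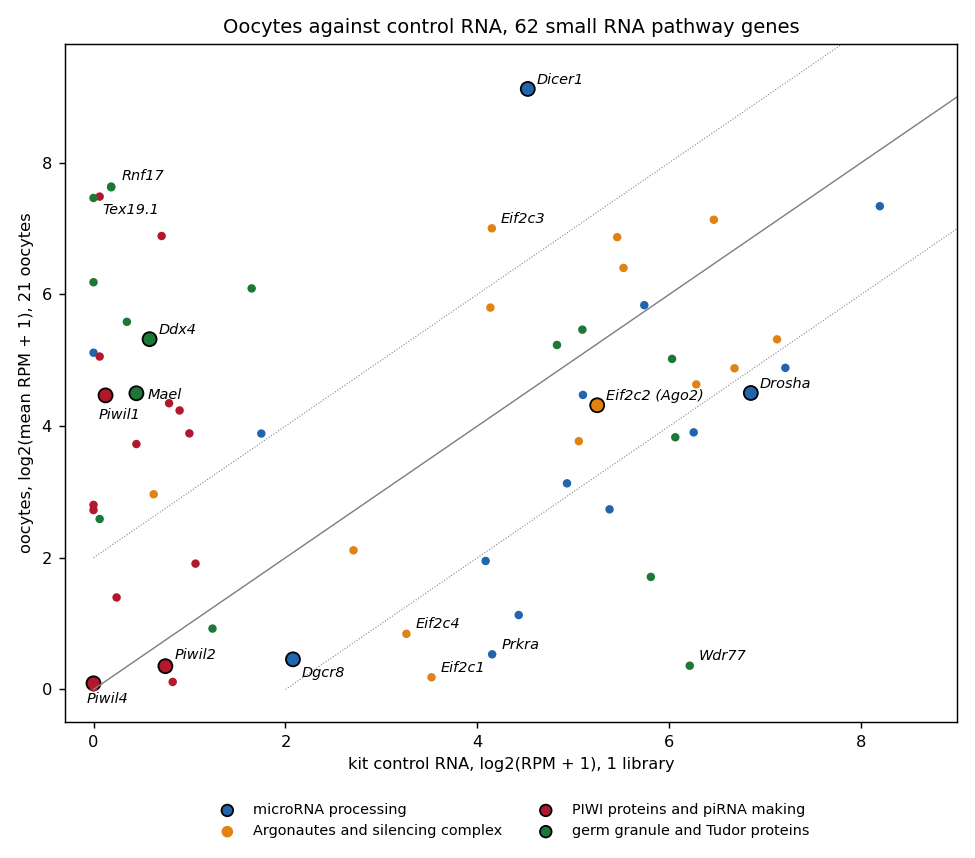
Mean level over 21 oocytes (vertical, log2 of mean RPM + 1) against the kit control RNA (horizontal, log2 of RPM + 1, 1 library) for 62 genes of small RNA pathways, coloured by list, with the 9 members large and outlined. The solid line marks equal levels and the dotted lines a log2 difference of 2; Dicer1, Ddx4, Piwil1 and Mael lie above the upper dotted line and Drosha below the lower one.

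The levels were also divided by exon length and averaged over the 21 oocytes. The order was Dicer1 at 33.1 RPM per kb, Ddx4 at 12.9, Mael at 12.5, Piwil1 at 4.84 and Drosha at 3.65 RPM per kb. Below these came Ago2 at 1.35, Piwil2 at 0.0525, Dgcr8 at 0.0485 and Piwil4 at 0.0124 RPM per kb. The ranges of the females did not overlap between Dicer1 and Ddx4, between Drosha and Ago2, and between Ago2 and Piwil2. The other neighbours overlapped. With coding length in place of exon length, Ago2 (7.33 RPM per coding kb) stood above Drosha (5.25) and Dgcr8 (0.161) above Piwil2 (0.0952), with overlapping ranges in each case.

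No member passed the test between the genotypes, and the ranges of the 4 transgenic and 4 wild-type females overlapped for all 9 genes. The test was limma on the mean log2(RPM + 1) of each female, with Benjamini-Hochberg adjustment over 10987 genes and a threshold of 0.05. Of all tested genes 0% passed it, and 6.81% had an unadjusted p under 0.05, against 0 of the 6 members tested. The ranges of the females did not overlap for 4.03% of the tested genes. Oocytes of a female are sisters and were averaged, so n = 4 in each group. A p above the threshold does not show that the genotypes had equal levels, and the 95% intervals give the differences that remain possible.

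Ddx4 had the smallest p of the members. Its female means were 47.6, 50.0, 33.2 and 48.0 RPM in transgenic lanes 1 to 4, and 29.3, 29.6, 36.7 and 44.6 RPM in wild-type lanes 1 to 4. The transgenic female was higher in lanes 1, 2 and 4 and lower in lane 3. The averages were 44.7 ± 7.73 RPM in transgenic females and 35.0 ± 7.24 RPM in wild-type females (SD, n = 4 each), a log2 difference of 0.33 ± 0.21 (SE; 95% interval -0.12 to 0.77). In limma this gave an unadjusted p of 0.140 and an adjusted p of 0.764.

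Piwil1 had female means of 37.3, 15.9, 22.1 and 19.4 RPM in transgenic lanes 1 to 4, and of 21.3, 21.3, 22.1 and 10.5 RPM in wild-type lanes 1 to 4. The averages of 23.7 ± 9.44 RPM in transgenic females and 18.8 ± 5.57 RPM in wild-type females gave a log2 difference of 0.32 ± 0.27 (95% interval -0.26 to 0.89; limma adjusted p = 0.819). Lanes 1 and 4 carried that difference, at 0.70 and 0.79 log2 units, while lanes 2 and 3 stood at -0.24 and 0.00. Mael differed in opposite directions across the lanes. Its female means were 14.6, 28.0, 17.5 and 11.9 RPM in transgenic lanes 1 to 4, and 22.6, 27.6, 33.8 and 5.67 RPM in wild-type lanes 1 to 4. The averages of 18.0 ± 7.04 RPM in transgenic females and 22.4 ± 12.1 RPM in wild-type females gave a log2 difference of -0.12 ± 0.44 (95% interval -1.06 to 0.83; limma adjusted p = 0.954). Without the wild-type female of lane 4 it was -0.65, with a limma unadjusted p of 0.0262 and an adjusted p of 0.394. In that fit 1260 of all tested genes had an unadjusted p under 0.05, against 748 with every female kept. With each female left out in turn, the difference of Mael ran from -0.65 to 0.15.

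The processing genes and Ago2 had differences within the spread of the females. Dicer1 had female means of 359, 575, 685 and 494 RPM in transgenic lanes 1 to 4, and of 521, 550, 672 and 463 RPM in wild-type lanes 1 to 4. Lane 1 alone stood apart, at -0.53 log2 units, against -0.01 to 0.11 in the other lanes. The averages were 529 ± 137 RPM in transgenic females and 552 ± 88.4 RPM in wild-type females, a log2 difference of -0.08 ± 0.19 (95% interval -0.50 to 0.34; limma adjusted p = 0.931). Drosha averaged 19.6 ± 7.98 RPM in transgenic females and 22.2 ± 4.36 RPM in wild-type females, with a log2 difference of -0.21 ± 0.26 (95% interval -0.76 to 0.35; limma adjusted p = 0.868). The lanes were split, at -0.66, -0.63, 0.41 and 0.05 log2 units in lanes 1 to 4. Ago2 averaged 17.8 ± 7.11 RPM in transgenic females and 18.5 ± 2.79 RPM in wild-type females, with a log2 difference of -0.11 ± 0.27 (95% interval -0.69 to 0.46; limma adjusted p = 0.929).

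The 3 members below 1 RPM were read in the limma fit without that filter. Dgcr8 averaged 0.346 ± 0.0471 RPM in transgenic females and 0.382 ± 0.140 RPM in wild-type females, with a log2 difference of 0.00 and an adjusted p of 0.998 in limma. Piwil2 averaged 0.362 ± 0.294 RPM in transgenic females and 0.179 ± 0.117 RPM in wild-type females, a log2 difference of 0.16 ± 0.13 with an adjusted p of 0.847 in limma. For Piwil4, 0 RPM in transgenic females and 0.175 ± 0.350 RPM in wild-type females rested on 1 oocyte.

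The other genes of these pathways were taken from 4 lists of 62 genes in all, members included, of which 51 passed the filter. In the transgenic females 29 had a higher and 22 a lower mean than in wild-type females; 0 passed the limma threshold, and the median log2 difference was 0.03. Over all 10987 genes tested, 5254 had a difference above 0 (47.8%) and 5733 below it, with a median of -0.01. Of 13 tested microRNA processing genes 6 were on the higher and 7 on the lower side (median -0.02), and of 12 tested Argonaute and silencing complex genes 5 and 7 (median -0.08). Of 12 tested PIWI and piRNA genes 9 were on the higher and 3 on the lower side (median 0.12), and of 14 tested germ granule and Tudor genes 9 and 5 (median 0.06). The ranges of the females did not overlap for 2 of the 51 genes, against the 4.03% of all tested genes.

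Those 2 genes, a number near that share of the 51, were Tex15 and Gtsf1. In transgenic females Tex15 was higher and Gtsf1 lower. Tex15, which is needed for piRNA-guided DNA methylation in the male germ line, averaged 134 ± 19.2 RPM in transgenic females and 98.2 ± 13.7 RPM in wild-type females, a log2 difference of 0.46 ± 0.16 (limma unadjusted p = 0.0135, adjusted p = 0.724). Of the 51 tested list genes it was the 1 at an unadjusted p under 0.05 on the higher side, where 2.78% of all tested genes were, and 0 of the 51 were on the lower side, with 4.03% of all tested genes. In the limma fit without the filter on low values, 6.03% of 18313 genes and 4 of the 62 list genes had an unadjusted p under 0.05. These were Tex15 and, named after their values were seen, Prkra on the higher side (0.731 ± 0.649 RPM in transgenic females, 0.0891 ± 0.0992 RPM in wild-type females; limma p = 0.0334, adjusted p = 0.809), with Eif2c1 and Gtsf1 on the lower side. Eif2c1 stood at 0.0450 ± 0.0604 RPM in transgenic females, against 0.211 ± 0.128 RPM in wild-type females (limma p = 0.0297, adjusted p = 0.807), and Gtsf1 had p = 0.0463 (limma adjusted p = 0.820). For Tex15 the transgenic female was the higher one in all 4 lanes. A single direction in all 4 lanes, up or down, was found for 18.3% of tested genes. Gtsf1, a small zinc finger partner of PIWI proteins, averaged 27.7 ± 4.05 RPM in transgenic females and 36.3 ± 4.93 RPM in wild-type females, a log2 difference of -0.36 ± 0.18 (limma unadjusted p = 0.0716, adjusted p = 0.749). In each of the 4 lanes the transgenic female had less of it. By the same ordering on p, Tdrd9, a Tudor domain helicase, averaged 5.90 ± 1.56 RPM in transgenic females and 4.23 ± 1.69 RPM in wild-type females. Tnrc6a, a scaffold that links Argonautes to the deadenylases, averaged 10.7 ± 0.804 RPM in transgenic females and 14.0 ± 3.79 RPM in wild-type females, and Zcchc11, a uridylating enzyme of microRNA precursors, 0.796 ± 0.266 and 1.67 ± 0.842 RPM. The limma adjusted p of these 3 genes were 0.764, 0.764 and 0.767.

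**Figure D4:**
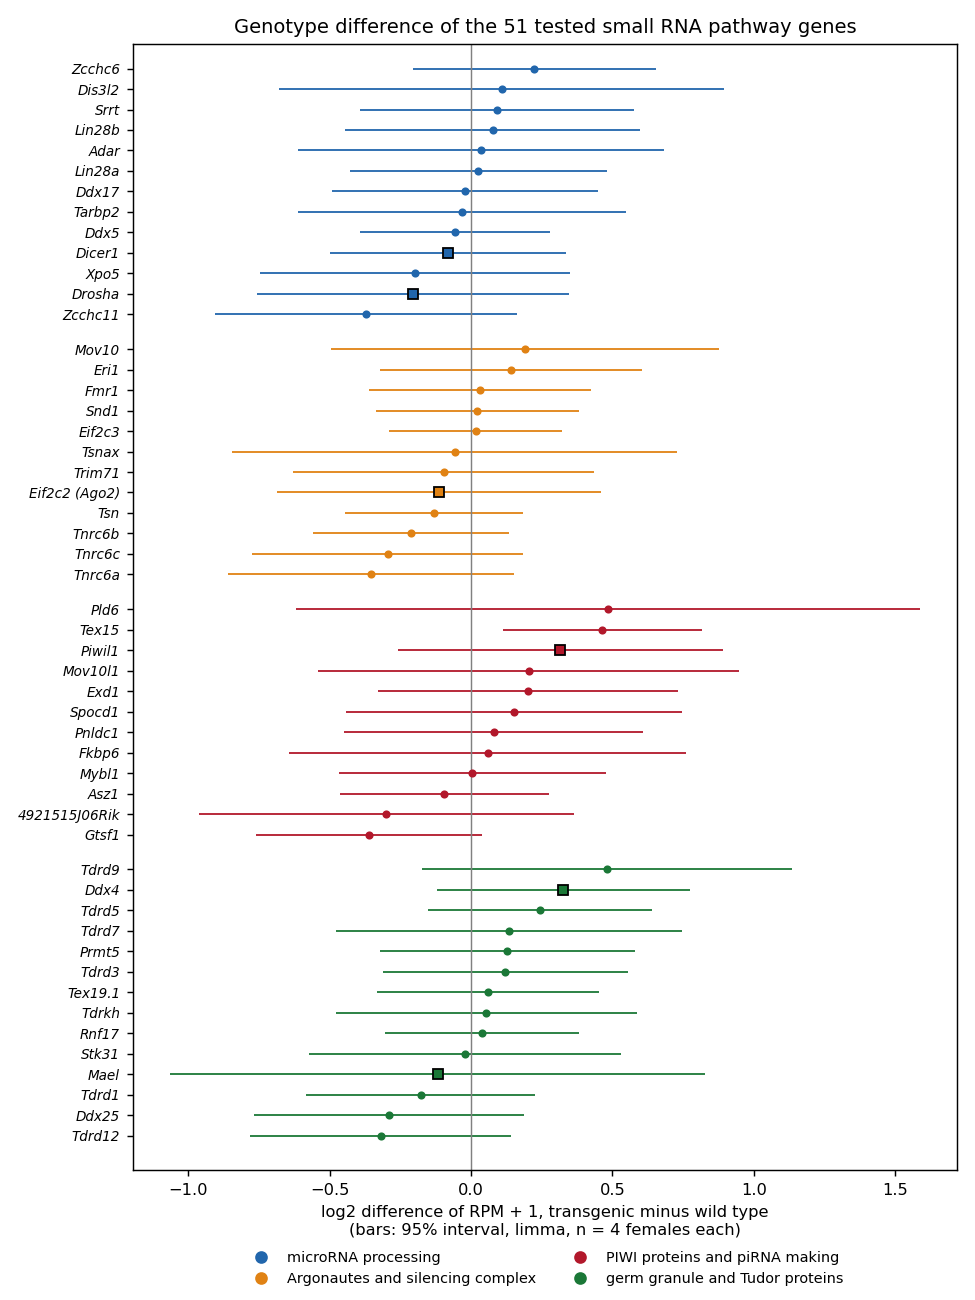
Log2 difference of RPM + 1, transgenic minus wild type, with 95% intervals from limma (n = 4 females each), for the 51 tested genes of the 4 lists; squares are members. The interval of Tex15 alone lies clear of 0 before adjustment, and the 6 member squares lie between -0.21 and 0.33.

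Against the control RNA, a log2 difference of 2 or more was found for 10 of 17 PIWI and piRNA genes and 9 of 16 germ granule and Tudor genes, beside 3 of 15 microRNA processing genes and 2 of 14 Argonaute and silencing complex genes, where the 3 were Dicer1, Lin28a and Lin28b and the 2 were Eif2c3 and Trim71. Of the 16105 genes described above, 15.4% were higher by that much. The PIWI and piRNA list also counts genes below 1 RPM in both, Piwil2 and Piwil4 among them, which those 16105 leave out. A difference of -2 or less was found for 0, 3, 7 and 2 genes of the same 4 lists, beside 41.1% of those 16105 genes. The lists were not tested against each other. The highest mean RPM in the germ granule list belonged to the Tudor proteins Rnf17 (197 ± 36.8 RPM in transgenic females and 190 ± 14.8 RPM in wild-type females, 0.136 RPM in the control RNA) and Tdrd12 (172 ± 45.5 RPM in transgenic females and 210 ± 42.0 RPM in wild-type females, 0.136 RPM in the control RNA) and to Tex19.1. Tex19.1, a germ line gene tied to transposon control, stood at 188 ± 51.2 RPM in transgenic females and 172 ± 15.9 RPM in wild-type females, with 0 reads in the control RNA. Asz1, a mitochondrial scaffold of piRNA making, stood at 168 ± 26.4 RPM in transgenic females and 179 ± 30.2 RPM in wild-type females, with 1 read in the control RNA. Per kb of exon, Asz1 at 62.9 RPM and Tdrd12 at 45.6 RPM lay above Ddx4 at 12.9 RPM and Piwil1 at 4.84 RPM. Of the silencing complex, Tnrc6c (104 ± 32.4 RPM in transgenic females and 121 ± 27.0 RPM in wild-type females) and Tnrc6b (76.4 ± 9.32 and 88.3 ± 12.7 RPM) are scaffolds of the Tnrc6a family. Their shares of its reads depended on the length used: per exon kb they were 64.9% and 27.9% in transgenic females and 65.7% and 26.6% in wild-type females, and per coding kb 52.5% and 42.0% in transgenic females and 53.6% and 40.4% in wild-type females. The nuclease subunit Tsn stood at 131 ± 18.1 RPM in transgenic females and 143 ± 9.99 RPM in wild-type females. Among microRNA processing genes, the helicase Ddx5 (156 ± 23.1 RPM in transgenic females and 161 ± 22.0 RPM in wild-type females) and the uridylating enzyme Zcchc6 (58.2 ± 7.92 and 51.5 ± 14.3 RPM) had the highest mean RPM beside Dicer1.

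Sister oocytes of a female differed in each of the 6 tested members. The ratio of the highest to the lowest sister had a median over the 8 females of 1.40 for Drosha, 1.45 for Dicer1, 1.58 for Mael, 1.62 for Ago2, 1.69 for Piwil1 and 1.74 for Ddx4. The SD of log2(RPM + 1) between sisters was 0.34 for Drosha, 0.36 for Dicer1, 0.36 for Mael, 0.44 for Ago2, 0.53 for Ddx4 and 0.63 for Piwil1, beside a median of 0.41 over all tested genes. The sisters of wild-type lane 2 were the farthest apart for 4 of these 6 genes. There Piwil1 reached 34.6 RPM in 1 sister and 9.09 RPM in another, Ddx4 44.6 and 13.4 RPM, Ago2 24.4 and 9.60 RPM, and Dicer1 680 and 363 RPM. Oocyte C, with the highest sum of cumulus and granulosa markers other than Serpine2, was the high sister for Piwil1 and Ddx4. It was the low one for Ago2 and Dicer1. The part of cumulus and granulosa cells was not tested. Mael was the member whose females differed most, with an SD between female means of 0.84, beside a median of 0.32 over all tested genes.

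Across the 21 oocytes, the levels of the processing genes moved with the share of reads in listed genes, a property of the library. Pearson's r of log2(RPM + 1) with that share was -0.85 for Dicer1, -0.69 for Drosha, -0.58 for Ago2, -0.38 for Mael, 0.27 for Piwil1 and 0.54 for Ddx4. With the log2 library total, r was -0.67 for Dicer1, -0.56 for Drosha, -0.47 for Mael and -0.45 for Ago2. It was 0.22 for Piwil1 and 0.16 for Ddx4. The oocytes with the lowest and the highest share, transgenic oocytes C of lane 3 (91.1%) and C of lane 1 (94.8%), were also those with the most and the least Dicer1. Transgenic oocyte C of lane 1 was also the deepest library. The part of the share of listed genes, or of the library total, in the levels was not tested. These correlations are descriptions: sisters share a female and the RPM of a library share 1 total.

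**Figure D5:**
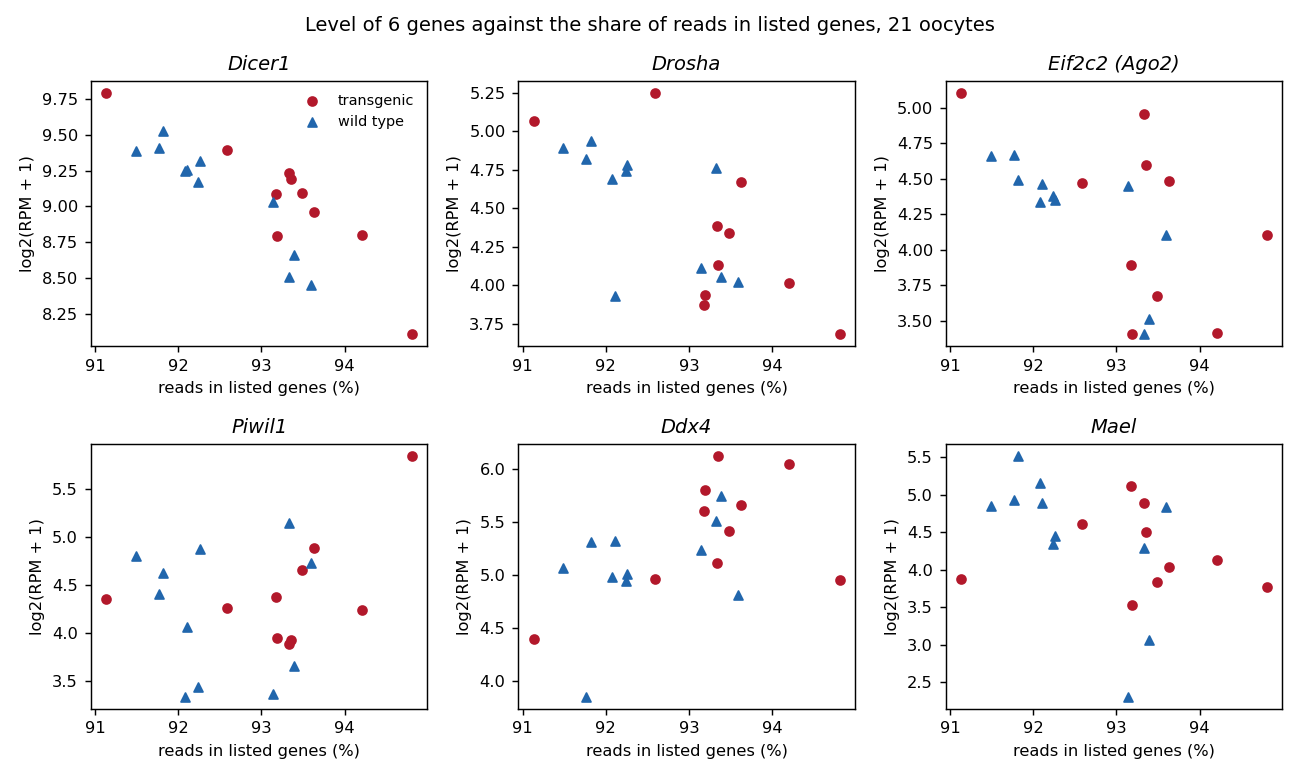
Log2(RPM + 1) of the 6 tested members (vertical) against the percent of reads in listed genes (horizontal) in 10 transgenic (circles) and 11 wild-type (triangles) oocytes. Dicer1 falls along the axis (r = -0.85), Drosha and Ago2 less so (r = -0.69 and -0.58), and Piwil1 shows little relation (r = 0.27).

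Among the members themselves, Dicer1 moved with Drosha (r = 0.66 over 21 oocytes, 0.60 after the mean of each female was taken away) and with Ago2 (0.67 and 0.53). Ddx4 ran against Ago2 (-0.56 and -0.74). Among the piRNA genes, r was 0.16 for Piwil1 and Mael, -0.12 for Piwil1 and Ddx4 and -0.23 for Ddx4 and Mael. Of 6020 genes averaging 10 RPM or more, those most like Dicer1 across the oocytes were Cct2 (r = 0.96), Acp1 (0.96) and Paip1 (0.95). Those most like Drosha were Actb (0.91), Bptf (0.85) and Ythdc1 (0.84), and those most like Ago2 were Fam178a, Taf15 and Wdr12 (0.82, 0.82 and 0.80). Those most like Ddx4 were Rad1, Zfp51 and Degs1 (0.82, 0.79 and 0.79), and those most like Piwil1 were Clk2, Hnrnpu and Trappc9 (0.79, 0.79 and 0.76). For Mael they were Nfil3, Akr1b3 and Fth1 (0.88, 0.87 and 0.86), and with the female means taken away these fell to 0.33, 0.61 and 0.37.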

How the data were processed

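Per the labels' protocols, RNA of lysed single oocytes was amplified with SMART-Seq v4, and ThruPLEX libraries were made from it. Trim Galore, FastQC, HISAT2 and the builds mm39 and GRCm39 are named in the submitters' processing notes. The counting method, its annotation and its use of strand were not given in the sources used here. Coordinates in the table are those of GRCm38 and are given as such. The deposited values are log2 values per library made by the authors. They are named RPKM, but they are log2 RPM without division by length: in every column the lowest value equals 0.9 reads, and 100% of the 256342 low values (under 2000 reads) came out whole within 0.02 reads.

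RPM was computed from these reads, with genes without reads set to 0. Oocytes were averaged per female, and log2(RPM + 1), which understates changes of low genes, was compared with limma 3.58.1 in R 4.3.3 (lmFit, eBayes with trend, two-sided). Lengths came from GENCODE M21, promoters and the hairpin from RefSeq. The planned pseudocount and filter had named RPKM and were applied to RPM. Females are paired by lane, which the labels give (1 of each genotype per lane). Across genes, their deviations from the genotype mean had correlations of -0.04, 0.084, 0.34 and 0.32 in lanes 1 to 4. For pairs of females from different lanes the correlations ran from -0.36 to 0.31. The labels name separate females. Members and lists were chosen with earlier results of these data known. Further genes were named by rule: all Argonautes and Tnrc6 genes, the 3 smallest p in each direction, the 3 highest means of each list and the 3 genes most correlated with each member over 10 RPM; Lin28a, Lin28b, Trim71 and Prkra were named after their values were seen. The test was run on simulated data. Alternatives were lane as a replicate block, other pseudocounts, filters and scalings, single oocytes with the female as a random effect, leaving out each female, and, added after the data were seen, voom on recovered reads.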

Additional observations from a re-analysis of the deposited data

Results flagged for a closer look

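Of 25 groups of oocytes or females examined for the members, 2 held a value far from the others by Dixon's rule, where chance gives about 1 in 20. Transgenic oocyte C of lane 1 stood at 56.7 RPM of Piwil1, with a gap to the next of the 10 transgenic oocytes of 0.489 of their whole range on the log2 scale. The wild-type female of lane 4 held all Piwil4 reads, at 0.700 RPM against 0 in the other females, so that the gap was 1 of the range. Those 36 reads came from 1 of its 2 oocytes.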

How the results depend on the processing

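Over 18 alternatives or fewer per gene, 246 of 263 values of the 9 members and 6 further genes kept their direction and their side of the threshold, and 16 changed sign without passing it. The remaining 1 was Piwil4 without the wild-type female of lane 4, where its difference of -0.16 became 0. Dgcr8, at 0.00, was 0.17 with a pseudocount of 0.1 and 0.011 after scaling by median ratios. With 1 female left out at a time, the log2 difference ran from -0.21 to 0.10 for Dicer1, from -0.056 to 0.043 for Dgcr8, from -0.30 to 0.078 for Ago2, from -0.65 to 0.15 for Mael, from -0.45 to -0.063 for Drosha, from 0.098 to 0.45 for Piwil1, from 0.07 to 0.28 for Piwil2, from 0.22 to 0.47 for Ddx4 and from -0.059 to 0.065 for Eif2c3. With lane as a replicate block limma called 0 genes and no member changed its call. Over all genes the count of 0 became 12 when single oocytes entered, the female being a random effect and lane a replicate block, none of them in the 4 lists, and it ran from 0 to 1 with 1 female left out (1 without the transgenic female of lane 1); voom called 0. List genes at an unadjusted limma p under 0.05 were 1 of 51, and 6 once wild-type lane 4 was left out. Over all tested genes the count rose as well, from 748 of 10987 to 1260, so the rise was not confined to the lists. Of the list genes, 0 passed the threshold in either case. Median-ratio and quantile scaling moved the median of all genes by 0.03. The smallest limma adjusted p of a member was 0.394, for Mael without the wild-type female of lane 4, and that of Ddx4 was 0.415 without the same female. Dgcr8, with at most 26 reads in an oocyte, and Piwil2 and Piwil4, at 0 in many, could show small differences least at this depth.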
